A study of Homo sapiens with 6 samples.

Results

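Interferon-stimulated genes were examined in the established human liver cancer line HepG2 after knockdown of the long noncoding RNA LINC01977. The set was a list of 37 interferon-stimulated and RNA-sensing genes, matched by gene name to the deposited table of 29153 genes. The table held 36 of the 37, and IFI44L was read only for its promoter. Cells carried a lentivirus with a control hairpin (sh-NC, 3 libraries) or with a hairpin against LINC01977 (sh-LINC01977, 3 libraries), and each group had been treated for 72 h. Both groups were therefore infected, and the study selected infected cells with puromycin. The titles of all 3 sh-LINC01977 libraries name the same hairpin, sh3. Effects of losing LINC01977 and effects of this hairpin itself therefore cannot be told apart here. The labels do not say whether the libraries of a group came from separate cultures, so p-values measure the spread between these libraries, which may be technical.

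Interferons are secreted signals that cells release on sensing viral nucleic acid. Type I interferons act through the receptor IFNAR1/IFNAR2 and the kinases JAK1 and TYK2, which activate transcription factors such as STAT2. Together with IRF9 these bind the interferon-stimulated response element, a DNA motif in the promoters of many target genes. The products include RNA sensors (DDX58, also called RIG-I, and IFIH1, also called MDA5), antiviral effectors (the IFIT, OAS, MX and IFITM families, BST2) and feedback inhibitors such as USP18. Hepatocytes respond to interferons in viral hepatitis, and some of these genes are also expressed without added interferon.

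Total counts were between 49929024 and 60441515 per library, and mitochondrial transcripts made up 11.7% to 13.5% of counts in sh-NC libraries and 10.6% to 11.7% in sh-LINC01977 libraries. LINC01977 itself was close to undetected, at 4, 0 and 16 counts in sh-NC and 0, 0 and 4 counts in sh-LINC01977 libraries, so the counts do not check the knockdown and groups follow the labels. The liver origin given in the labels was checked with markers, and all 10 listed liver markers, such as ALB and AFP, were above a mean of 0.5 FPKM. Their summed level was 4447 to 4816 FPKM in sh-NC libraries and 3131 to 3197 FPKM in sh-LINC01977 libraries, and 7 of the 10 fell at an adjusted p under 0.05 while 0 rose. Of 10 immune cell markers, 7 were in the table, with summed levels of 626 to 634 FPKM in sh-NC and 544 to 559 FPKM in sh-LINC01977 libraries. Nearly all of that sum was lysozyme (LYZ), and the leukocyte marker PTPRC was at 0 in 5 of the 6 libraries. Of 8 fibroblast and endothelial markers, 5 were in the table, and their sum was at most 0.601 FPKM in any library. What part the lower liver markers have in the results below was not tested.

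The response element was looked for in promoters of the listed genes, since it is the sequence through which type I interferon acts on many of its targets. RefSeq promoters (GRCh38.p14, 250 bases before to 50 bases after the start site) were found for 29 of the 37 genes. The 8 without an entry were DHX58, IRF7, IFIT2, OAS2, OASL, MX2, IFITM2 and USP18. The core of the element, read as GAAA, any 2 bases and GAAA on either strand, occurred in 18 of the 29 promoters (62.1%), against 3.57% of all 35116 promoters of this length. The sequences below are 30-base windows for the 10 members with a match and a mean FPKM of at least 0.5. Each is the window nearest the start site, printed 5′ to 3′ on the gene's strand, with the matched letters in capitals.
IFITM1 (chr11:314024-314053, plus strand, first capital 6 bases before the start site): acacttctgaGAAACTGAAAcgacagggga
IFITM3 (chr11:320876-320905, minus strand, 35 bases before): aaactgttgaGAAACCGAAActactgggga
BST2 (chr19:17405738-17405767, minus strand, 130 bases before): tttctggGAAACTGAAACTGAAAacctaat
OAS3 (chr12:112938452-112938481, plus strand, 12 bases before): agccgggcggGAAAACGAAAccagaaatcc
IFI6 (chr1:27672266-27672295, minus strand, 93 bases before): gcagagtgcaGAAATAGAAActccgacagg
TRIM21 (chr11:4393663-4393692, minus strand, 17 bases after): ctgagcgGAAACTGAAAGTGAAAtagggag
ISG15 (chr1:1013377-1013406, plus strand, 113 bases before): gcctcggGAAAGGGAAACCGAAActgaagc
ISG20 (chr15:88638937-88638966, plus strand, 69 bases before): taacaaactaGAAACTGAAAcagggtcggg
IFIT5 (chr10:89414547-89414576, plus strand, 19 bases before): agTTTCGATTTCttaagTTTCAGTTTCtga
IFIH1 (chr2:162318686-162318715, minus strand, 21 bases before): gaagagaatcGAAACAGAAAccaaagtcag
In BST2, TRIM21 and ISG15 a pair of overlapping matches forms 1 longer run of capitals. In IFIT5 both matches lie on the strand opposite to the gene, so they read as TTTC, 2 bases and TTTC. A match is a run of letters and does not show that a factor bound there.

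Of the 36 members in the table, 22 had a mean of at least 0.5 FPKM (fragments scaled to transcript length and library total) over the 6 libraries and were tested among 13452 genes with edgeR's quasi-likelihood test. Each of the 22 also had a mean of at least 0.594 FPKM in both groups, so none passed through one group alone. At a Benjamini-Hochberg adjusted p under 0.05, 7 of the 22 (31.8%) rose in sh-LINC01977 cells, where 7.05% of all tested genes did. These were IFITM1, IFITM2, IFITM3, BST2, STAT2, DDX58 and OAS3. One of the 22 (4.55%) fell, USP18, where 8.07% of all tested genes did. With scaling by library totals the same counts, 7 and 1, stood beside 10.8% of all tested genes higher and 5.71% lower. The other 14 did not pass the test. Of the 22 log2 fold changes, 16 (72.7%) were above 0, as were 49.8% of those of all tested genes. The groups did not overlap in CPM (counts scaled to the library total with TMM factors) for 15 of the 22 members (68.2%), 13 higher and 2 lower, against 37.1% of all tested genes. The median log2 fold change was 0.26 over the 22 members and -0.0010 over all tested genes. The study called genes that moved at least 2-fold with an unadjusted P of at most 0.05. Here that rule was applied to the edgeR fit of the tested genes, which need not match the study's own test or gene set. By it 2 members were higher (IFITM1 and IFITM2) and 0 lower, against 1.55% of all tested genes higher and 1.05% lower (2.6% in either direction). In bulk samples, a change in the number of cells that express a gene and a change in RNA per cell cannot be told apart.

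**Figure D1:**
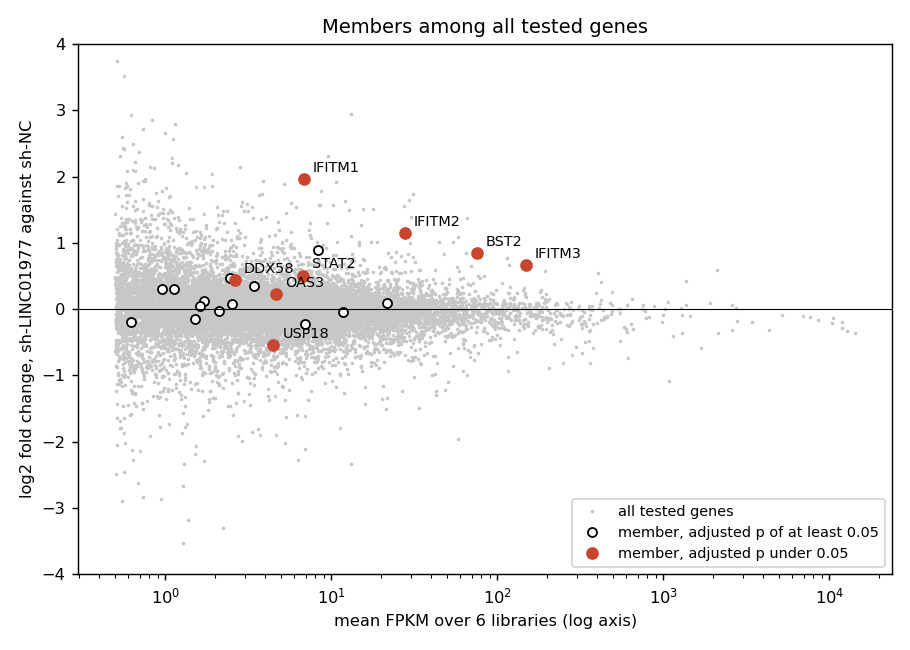
Mean FPKM over the 6 libraries (x axis, log scale) against the log2 fold change of sh-LINC01977 over sh-NC (y axis) for all 13452 tested genes in grey and the 22 tested members as circles. Filled circles mark the 8 members with an adjusted p under 0.05, 7 of them above the zero line and USP18 below it, and 13 genes lie outside the axis limits of 4 in either direction.

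Summed over the 36 members, the level was 275, 263 and 255 FPKM in sh-NC libraries and 433, 435 and 410 FPKM in sh-LINC01977 libraries. The sum was thus higher in every sh-LINC01977 library, by a difference of 162 FPKM between the group means. IFITM3 alone made up 44.9% of this difference, BST2 28.4%, IFITM2 13.5% and IFITM1 5.1%. Without these 4 genes, the other 32 members summed to 80.96 ± 3.44 FPKM in sh-NC and 93.99 ± 1.35 FPKM in sh-LINC01977 cells (SD, n = 3 each), a ratio of 1.16. Of this difference of 13 FPKM, IFI6 made up 5.34, STAT2 2.63 and ADAR 2.42 FPKM. The largest parts the other way were USP18 (-1.46 FPKM) and IFI35 (-0.809 FPKM). FPKM values carry no TMM factors. The 14 members below the filter summed to 2.20 ± 0.138 and 2.14 ± 0.277 FPKM (SD, n = 3 each).

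**Figure D2:**
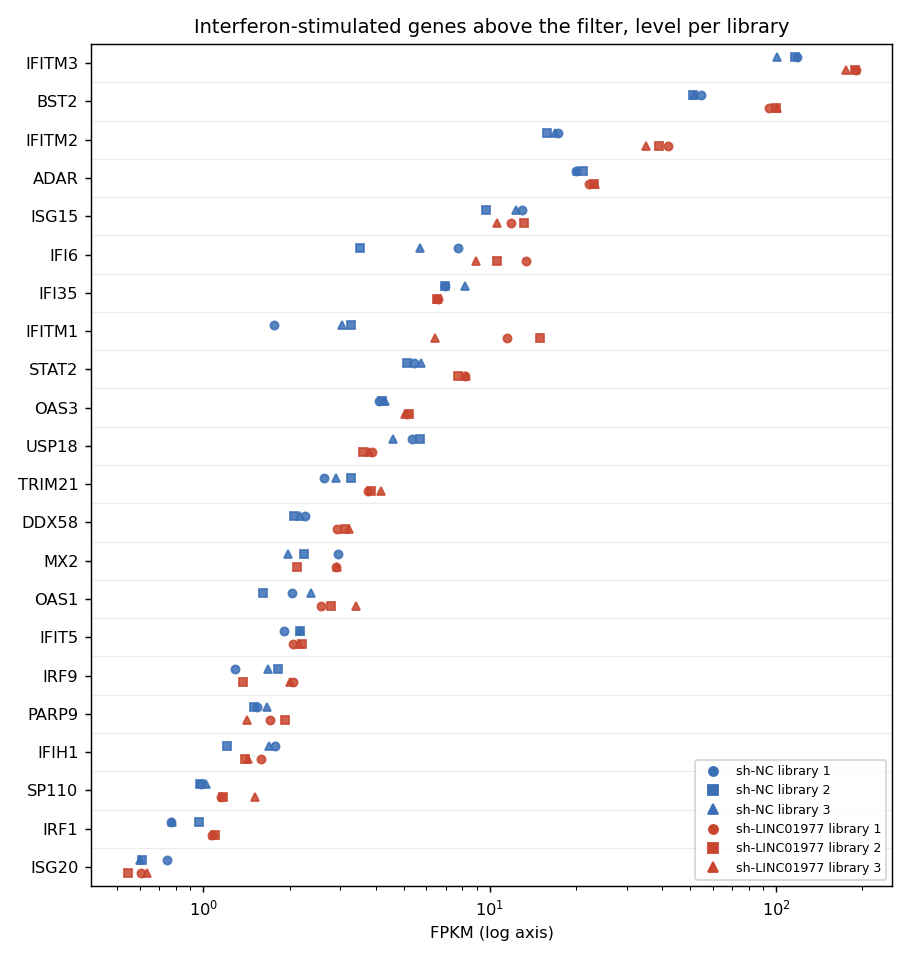
FPKM of the 22 tested members (x axis, log scale) in each library, with sh-NC in blue, sh-LINC01977 in red and marker shapes for the library number; genes are ordered by mean level. IFITM3, BST2 and IFITM2 hold the 3 highest means over the 6 libraries, although ADAR is above IFITM2 in every sh-NC library, and the red points of those 3 genes all lie to the right of their blue points, while those of ISG15 and IFIT5 are mixed.

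The IFITM genes encode small membrane proteins that hinder the fusion of enveloped viruses with cell membranes, IFITM1 mainly at the cell surface and IFITM2 and IFITM3 mainly in endosomes. All 3 rose. IFITM1 (ENSG00000185885, chromosome 11, 313506 to 315272, plus strand) was at 1.76, 3.28 and 3.04 FPKM in sh-NC libraries and at 11.5, 14.95 and 6.42 FPKM in sh-LINC01977 libraries. Its log2 fold change was 1.96 (SE 0.369, adjusted p = 0.0160 from edgeR), a fold of 3.90, and the CPM of the sh-LINC01977 libraries differed among themselves by a factor of 2.40. IFITM2 (ENSG00000185201, chromosome 11, 307631 to 315272, plus strand) was at 17.3, 15.8 and 16.9 FPKM in sh-NC libraries and at 42.0, 38.8 and 34.95 FPKM in sh-LINC01977 libraries. The replicates of IFITM2 were close, and its log2 fold change was 1.14 (SE 0.0884, adjusted p = 0.00106 from edgeR). IFITM3 (ENSG00000142089, chromosome 11, 319669 to 327537, minus strand) was the most abundant member, at 118, 116 and 101 FPKM in sh-NC libraries and 190, 188 and 175 FPKM in sh-LINC01977 libraries. It had the smallest log2 fold change of the family, 0.66 (SE 0.0794, adjusted p = 0.00350 from edgeR), and the groups did not overlap.

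In the deposited coordinates the interval of IFITM1 lies within that of IFITM2 on the same strand, so the counts of these genes may not be independent. Of the 50-base stretches in the protein-coding transcripts of IFITM1 in GENCODE 29, 30.3% also occurred in IFITM2 and 9.46% in IFITM3, and 12.1% of those of IFITM3 occurred in IFITM2. How the counting shared such reads is not given in the sources used here.

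The genes around the IFITM cluster were read after their neighbours' values were seen. Distances were taken from the start of IFITM3 in the deposited coordinates (327537), not from the RefSeq start used for its promoter. Within 200 kb of it, 27 other genes were listed and 13 were tested. Of these 13, 0 rose and 0 fell at an adjusted p under 0.05 in edgeR, where 7.05% of all tested genes rose and 8.07% fell. Their log2 fold changes ran from -0.32 (SIRT3) to 0.94 (AC136475.7), with a median of 0.050. AC136475.7 overlaps IFITM3 on the same strand and had an adjusted p of 0.0951 from edgeR. The closest tested gene beyond the cluster on the far side, B4GALNT4, had a log2 fold change of -0.095 (SE 0.0739).

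**Figure D3:**
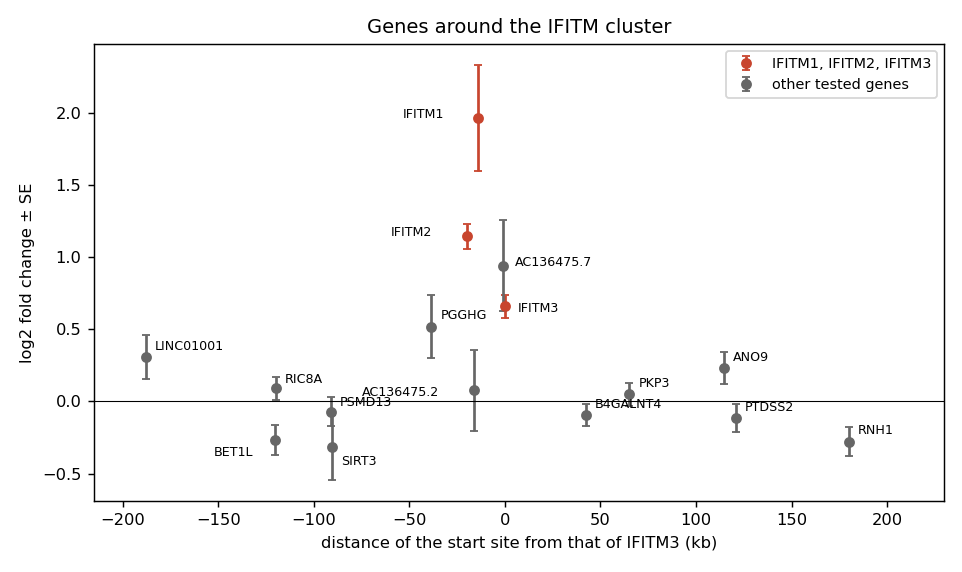
Log2 fold change with its SE (y axis) of the tested genes around the IFITM cluster against the distance of their deposited start site from that of IFITM3 in kb (x axis), with IFITM1, IFITM2 and IFITM3 in red and other genes in grey. IFITM1 and IFITM2 stand above all 13 other genes, and IFITM3 stands above all but AC136475.7, which overlaps it.

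BST2 (ENSG00000130303, chromosome 19, 17402939 to 17405648, minus strand) encodes tetherin, which holds budding enveloped virus particles at the cell surface. It was at 54.5, 51.2 and 51.7 FPKM in sh-NC libraries and at 94.3, 99.8 and 101 FPKM in sh-LINC01977 libraries. The lowest sh-LINC01977 library thus stood well above the highest sh-NC library. The log2 fold change of BST2 was 0.84 (SE 0.0561, adjusted p = 6.92e-04 from edgeR), and the 95% interval, 0.71 to 0.98, stayed under a 2-fold increase. The long noncoding RNA BISPR starts close to BST2 on the opposite strand, and was at 2.28, 2.85 and 2.26 FPKM in sh-NC and 2.28, 2.04 and 3.06 FPKM in sh-LINC01977 libraries. BISPR, which was read after the values of BST2 were seen, overlapped between the groups, with a log2 fold change of -0.070 (95% interval -0.50 to 0.36, adjusted p = 0.830 from edgeR). MVB12A, which starts beside BISPR on the same strand, had a log2 fold change of 0.34 (adjusted p = 0.0783 from edgeR).

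ADAR, TRIM21, SP110, ISG20 and PARP9 did not pass the test. ADAR, which edits adenosine to inosine in double-stranded RNA, was at 19.9, 21.2 and 20.2 FPKM in sh-NC libraries and at 22.2, 23.0 and 23.4 FPKM in sh-LINC01977 libraries. These levels did not overlap, although the log2 fold change was 0.098 (95% interval -0.0060 to 0.20, adjusted p = 0.185 from edgeR). TRIM21, a cytosolic antibody receptor and ubiquitin ligase, was at 2.64, 3.27 and 2.90 FPKM in sh-NC and 3.76, 3.85 and 4.18 FPKM in sh-LINC01977 libraries. Its groups did not overlap either, and its log2 fold change was 0.36 (SE 0.116, adjusted p = 0.0909 from edgeR). SP110, a nuclear body protein, was at 0.981, 0.974 and 1.02 FPKM in sh-NC and 1.15, 1.17 and 1.52 FPKM in sh-LINC01977 libraries. Its log2 fold change was 0.30 (SE 0.127, adjusted p = 0.165 from edgeR), and 0.18 without the third sh-LINC01977 library. ISG20, an exonuclease that degrades single-stranded RNA, and PARP9, a member of the PARP family that pairs with DTX3L, had overlapping groups, at 0.543 to 0.747 FPKM and 1.41 to 1.93 FPKM over the 6 libraries. Their log2 fold changes were -0.19 (SE 0.145) and 0.044 (SE 0.133), and that of ISG20 was -0.076 without the first sh-NC library.

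The transcription factors above the filter all had positive values, and STAT2 passed the test. STAT2 (ENSG00000170581, chromosome 12, 56341597 to 56360155, minus strand), a transcription factor of the type I response, was at 5.44, 5.12 and 5.75 FPKM in sh-NC libraries. It was at 8.22, 7.74 and 8.25 FPKM in sh-LINC01977 libraries, all above the sh-NC libraries. The log2 fold change was 0.50 (SE 0.0625, adjusted p = 0.00395 from edgeR). IRF1, a factor of the type II interferon response, was at 0.772, 0.962 and 0.777 FPKM in sh-NC and 1.07, 1.09 and 1.08 FPKM in sh-LINC01977 libraries. The groups were apart, but the adjusted p was 0.141 from edgeR (log2 fold change 0.30, SE 0.119). IRF9, a DNA-binding partner of STAT2, was at 1.28, 1.82 and 1.68 FPKM in sh-NC and 2.05, 1.38 and 2.001 FPKM in sh-LINC01977 libraries. These overlapped, with a log2 fold change of 0.12 (95% interval -0.35 to 0.59). In the deposited coordinates AL136295.5 covers the interval of IRF9 on the same strand, so the counts of these genes may not be independent. AL136295.5 had a mean of 1.52 FPKM and a log2 fold change of -0.31 (adjusted p = 0.366 from edgeR).

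Of the RNA sensors, DDX58 (ENSG00000107201, chromosome 9, 32455705 to 32526324, minus strand) rose. It was at 2.27, 2.08 and 2.18 FPKM in sh-NC libraries and at 2.92, 3.11 and 3.22 FPKM in sh-LINC01977 libraries, which did not overlap. Its log2 fold change was 0.44 (SE 0.0889, adjusted p = 0.0205 from edgeR). IFIH1, the sensor of long double-stranded RNA, was at 1.78, 1.21 and 1.70 FPKM in sh-NC and 1.58, 1.40 and 1.44 FPKM in sh-LINC01977 libraries. Its groups overlapped, with a log2 fold change of -0.15 (95% interval -0.55 to 0.25, adjusted p = 0.591 from edgeR), which was -0.31 without the second sh-NC library and -0.037 without the first. The adjusted p of DDX58 rose above 0.05 without the second sh-NC library (0.0656), the third sh-NC library (0.0561), the second sh-LINC01977 library (0.0728) or the third sh-LINC01977 library (0.0734).

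The OAS enzymes make oligoadenylates on binding double-stranded RNA, which activate the nuclease RNase L. OAS3 (ENSG00000111331, chromosome 12, 112938352 to 112973249, plus strand) was at 4.09, 4.20 and 4.29 FPKM in sh-NC libraries and at 5.14, 5.20 and 5.05 FPKM in sh-LINC01977 libraries. The replicates were tight and the groups apart, with a log2 fold change of 0.23 (SE 0.0528, adjusted p = 0.0326 from edgeR). OAS3 did not keep this call when any 1 of the 6 libraries was left out, with adjusted p of 0.0958, 0.0851 and 0.0704 without the first, the second or the third sh-NC library and 0.0835, 0.103 and 0.0654 without the first, the second or the third sh-LINC01977 library. OAS1, its neighbour, was at 2.04, 1.62 and 2.37 FPKM in sh-NC and 2.58, 2.78 and 3.40 FPKM in sh-LINC01977 libraries. The groups of OAS1 did not overlap and its log2 fold change was 0.47, but its SE was 0.166 and its adjusted p 0.112 from edgeR.

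ISG15 is a ubiquitin-like protein that is attached to other proteins after interferon, and USP18 removes it and also blocks the interferon receptor. USP18 (ENSG00000184979, chromosome 22, 18149899 to 18177397, plus strand) fell. It was at 5.34, 5.70 and 4.60 FPKM in sh-NC libraries and at 3.87, 3.60 and 3.79 FPKM in sh-LINC01977 libraries, all below the sh-NC libraries. The log2 fold change was -0.54 (SE 0.111, adjusted p = 0.0220 from edgeR). Its adjusted p was 0.0703 and 0.0664 without the first or second sh-NC library and 0.0562, 0.0762 and 0.0686 without the first, the second or the third sh-LINC01977 library. Reads of USP18 can be shared with its near-identical copy USP41, whose counts were 53, 13 and 32 in sh-NC and 40, 44 and 19 in sh-LINC01977 libraries. ISG15 was at 13.0, 9.71 and 12.3 FPKM in sh-NC and 11.9, 13.1 and 10.6 FPKM in sh-LINC01977 libraries. The groups of ISG15 overlapped fully, with a log2 fold change of -0.040 and a 95% interval from -0.40 to 0.32 (adjusted p = 0.889 from edgeR). This value was 0.025 with scaling by library totals.

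IFI6, a mitochondrial and endoplasmic reticulum protein that restrains flaviviruses, was at 7.72, 3.51 and 5.72 FPKM in sh-NC libraries and at 13.4, 10.6 and 8.97 FPKM in sh-LINC01977 libraries. Its log2 fold change of 0.89 was larger than that of BST2, but the sh-NC libraries differed by a factor of 2.23 in CPM, and the adjusted p was 0.1 from edgeR (SE 0.302). IFI35, a cytosolic interferon-induced protein, was at 6.97, 6.95 and 8.17 FPKM in sh-NC and 6.59, 6.51 and 6.56 FPKM in sh-LINC01977 libraries. It was lower without overlap, with a log2 fold change of -0.23 (SE 0.0903, adjusted p = 0.137 from edgeR). IFIT5, which binds RNA with a triphosphate end, was at 1.90, 2.17 and 2.17 FPKM in sh-NC and 2.06, 2.21 and 2.16 FPKM in sh-LINC01977 libraries. Its groups overlapped, and its log2 fold change was -0.022 with a 95% interval from -0.26 to 0.21. MX2, a dynamin-like GTPase that restricts viral entry into the nucleus, overlapped as well, at 2.96, 2.24 and 1.97 FPKM in sh-NC and 2.90, 2.12 and 2.92 FPKM in sh-LINC01977 libraries. Its log2 fold change was 0.080 (95% interval -0.36 to 0.52).

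**Figure D4:**
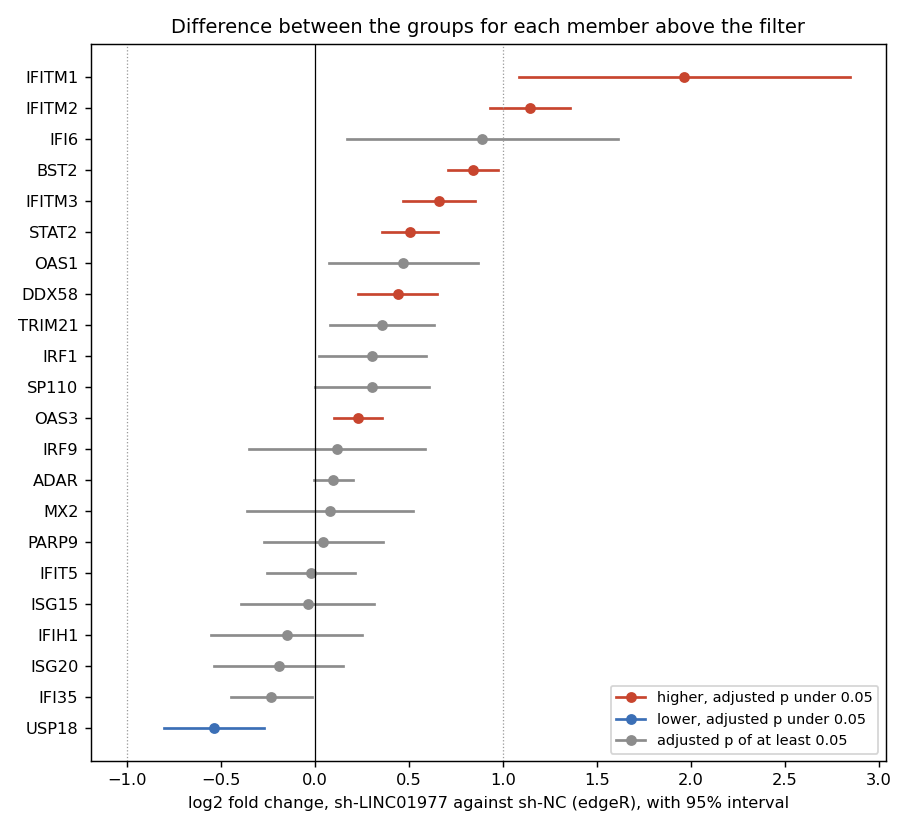
Log2 fold change of sh-LINC01977 over sh-NC with its 95% interval from edgeR (x axis) for the 22 tested members (y axis), with dotted lines at a 2-fold change. The 7 members in red run from 0.23 (OAS3) to 1.96 (IFITM1), USP18 in blue is at -0.54, and grey intervals belong to the 14 members with an adjusted p of at least 0.05.

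The remaining 14 members lay below the filter. ISG20 (mean 0.623 FPKM) and IRF1 (0.959 FPKM) were the lowest members inside it, and IFIT3 (0.497 FPKM), DHX58 (0.4955 FPKM) and MX1 (0.4815 FPKM) the highest outside it. They include the IFIT genes that bind viral RNA and the GTPase MX1, which are widely used as markers of an interferon response. IFIT1 had counts of 90, 79 and 92 in sh-NC and 46, 102 and 61 in sh-LINC01977 libraries. IFIT3 had counts of 120, 64 and 169 in sh-NC and 63, 53 and 74 in sh-LINC01977 libraries. MX1 had counts of 284, 318 and 281 in sh-NC and 264, 322 and 248 in sh-LINC01977 libraries. The groups overlapped in these 3 genes, and in an edgeR fit of all 29153 genes their log2 fold changes were -0.39 (adjusted p = 0.494), -0.90 (0.236) and -0.15 (0.615). The antiviral enzyme RSAD2 had 4 counts in 1 sh-LINC01977 library and 0 in the other 5, and IRF7, a factor that amplifies the response, had 7 counts in 1 sh-NC library and 0 in the other 5. IFI44 had counts of 0, 0 and 4 in both groups. RSAD2, IRF7 and IFI44 were thus near 0 in both groups, and what difference could be detected at such counts was not tested.

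DHX58, a relative of DDX58 without signalling domains, had counts of 92, 115 and 102 in sh-NC and 110, 206 and 158 in sh-LINC01977 libraries, with overlap after scaling and a log2 fold change of 0.54 (adjusted p = 0.344 from the edgeR fit of all genes). XAF1, a pro-apoptotic interferon target, had counts of 28, 50 and 19 in sh-NC and 13, 8 and 3 in sh-LINC01977 libraries. The groups of XAF1 did not overlap, with a log2 fold change of -2.10 (SE 0.673) that had an unadjusted p of 0.0154 and an adjusted p of 0.149 from the same edgeR fit. SAMD9, an antiviral factor, had counts of 8, 8 and 19 in sh-NC and 24, 23 and 21 in sh-LINC01977 libraries, also without overlap (log2 fold change 0.92, adjusted p = 0.425 from edgeR). IFIT2, OAS2, OASL, HERC5, which attaches ISG15 to proteins, and IFI27 had at most 58 counts in any library, with groups that overlapped in CPM. The unscaled counts of IFI27, 42, 46 and 43 in sh-NC and 49, 56 and 58 in sh-LINC01977 libraries, did not overlap. Of the 14 members, 0 passed an adjusted p of 0.05 in edgeR, where 5.36% of all 29153 genes did, and 2 had an unadjusted p under 0.05 (IFIT3 and XAF1, both lower), where 8.69% of all 29153 genes were higher and 8.47% lower by that rule. At least 2-fold with an unadjusted p of at most 0.05, 0 of the 14 were higher and 1 was lower (XAF1), where 2.51% and 1.2% of all 29153 genes were.

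**Figure D5:**
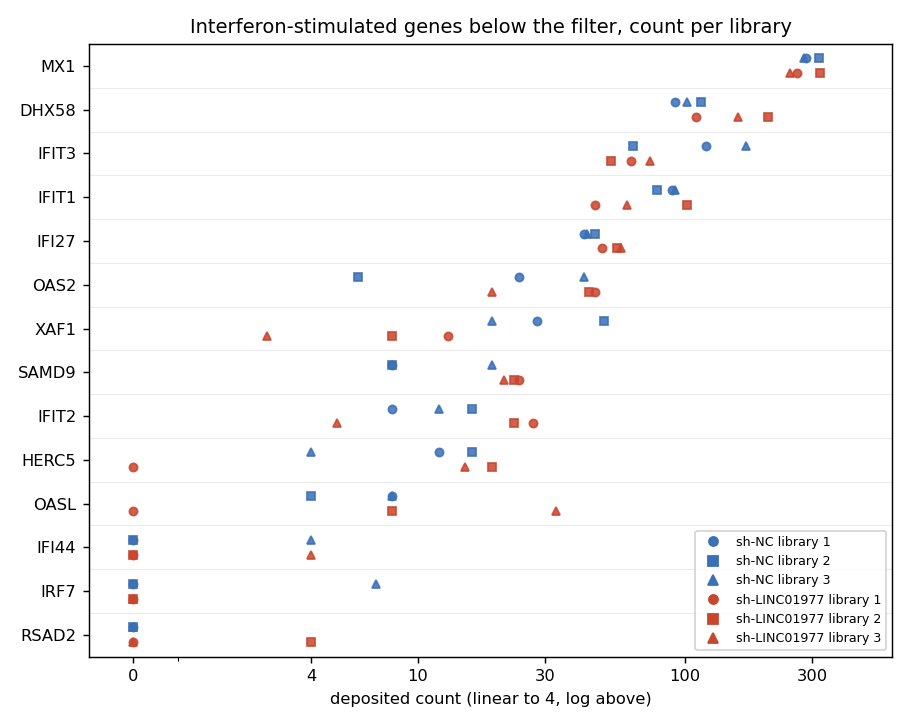
Deposited counts (x axis, linear to 4 and logarithmic above) of the 14 members below the filter in each library, with sh-NC in blue, sh-LINC01977 in red and marker shapes for the library number; genes are ordered by their summed count. Blue and red points are mixed for most genes, including IFIT1 and MX1, and in RSAD2, IRF7 and IFI44 nearly all points are at 0.

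With respect to the promoter motif printed above, 4 of the 10 tested members with a match to this core rose (IFITM1, IFITM3, BST2 and OAS3), as did 2 of the 9 tested members whose promoter had none (STAT2 and DDX58), where 7.05% of all tested genes rose. Median log2 fold changes were 0.29 and 0.30. Among members below the filter, 7 of 9 promoters (77.8%) held a match. IFIT1 and the other match-bearing genes below the filter did not pass the test. Above it, IFIT5, ISG15, ISG20, IFIH1, IFI6 and TRIM21 also held a match and did not pass. Their log2 fold changes were -0.022, -0.040, -0.19, -0.15, 0.89 and 0.36, in that order. The letters TTCNNNGAA, which STAT dimers can bind, occurred in 7 of the 29 promoters (24.1%) against 7.66% of all promoters, and in IFITM1, BST2 and IFI27 a match shared bases with a match to the core of the response element.

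The pathway upstream of the members was read from lists of 73 further genes in the table, of which 53 were tested and 8 rose while 3 fell, where 7.05% of all tested genes rose and 8.07% fell. These 11 calls were 7 without the second or the third sh-LINC01977 library. The 13 listed interferon genes themselves, IFNB1 and IFNL1 among them, had no row in the deposited table, so no level was read for them. Of 10 genes for interferon receptors and the signalling steps next to them, all were tested and 2 rose. IFNGR1, the ligand-binding chain of the type II receptor, had a log2 fold change of 0.60 (SE 0.0475, adjusted p = 0.00113 from edgeR) and JAK1, which all interferon receptors use, of 0.30 (SE 0.0491, adjusted p = 0.00973). The other chain of the type II receptor, IFNGR2, was lower without overlap (log2 fold change -0.39, adjusted p = 0.0725 from edgeR), as was IFNLR1, a chain of the type III receptor (-0.47, adjusted p = 0.0700), and neither passed the test. The type I receptor chains IFNAR1 and IFNAR2 and the kinase TYK2 did not pass, with log2 fold changes of 0.11, 0.26 and -0.016. The value of IFNAR2 was 0.64 (adjusted p = 0.0555 from edgeR) without the third sh-NC library and 0.072 without the first.

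Among 15 genes of nucleic acid sensing, 11 were tested. TMEM173, which encodes the DNA-sensing adaptor STING, rose from 3.97, 3.47 and 2.89 CPM to 6.92, 6.38 and 6.10 CPM, with a log2 fold change of 0.91 (SE 0.161, adjusted p = 0.0129 from edgeR). MYD88, the adaptor of most Toll-like receptors, fell by 1.63 on the log2 scale (SE 0.283, adjusted p = 0.0122 from edgeR), from 23.0, 49.4 and 48.0 CPM to 13.5, 12.3 and 13.1 CPM. TRIM25, a ubiquitin ligase that acts on DDX58, fell by 0.33 on the log2 scale (adjusted p = 0.0136 from edgeR). Both calls were just lost without the second sh-LINC01977 library (adjusted p of 0.0516 and 0.0510 from edgeR), and that of TRIM25 also without the third (0.0522). MAVS, the adaptor of DDX58 and IFIH1, and TBK1 and IRF3 beyond it did not pass, with log2 fold changes of -0.24, 0.048 and 0.14. Without the third sh-LINC01977 library those of MAVS and IRF3 were -0.13 and 0.078.

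Of 11 listed inhibitors, 9 were tested and the phosphatase PTPN6 rose (log2 fold change 0.43, adjusted p = 0.0313 from edgeR). The call of PTPN6 held without the second sh-LINC01977 library and was lost without any other single library, with adjusted p of 0.0726 to 0.0872. SOCS3, an inhibitor of JAK kinases below the filter, had counts of 48, 18 and 19 in sh-NC and 106, 111 and 128 after knockdown, without overlap. The log2 fold change of SOCS3 was 1.97 (SE 0.420, adjusted p = 0.0396 from the edgeR fit of all genes). SOCS1, at 184, 83 and 100 counts in sh-NC and 122, 81 and 61 in sh-LINC01977 libraries, had overlapping groups. Of 37 other interferon-stimulated genes, 23 were tested, 4 rose and 1 fell, with a median log2 fold change of 7.0e-04. Those that rose were SP100 (log2 fold change 0.63), GBP2 (0.57), UBE2L6, the conjugating enzyme for ISG15 (0.50), and RNF213 (0.31), and LAP3 fell by 0.39, with adjusted p between 0.00450 and 0.0164 from edgeR. The adjusted p of GBP2 was between 0.0517 and 0.0635 without the first or the second sh-NC library or the second or the third sh-LINC01977 library. That of LAP3 was 0.0517 to 0.0537 without the second or the third sh-NC library or the third sh-LINC01977 library, and that of SP100 was 0.0516 without the second sh-LINC01977 library. The chemokines CXCL9, CXCL10 and CXCL11 had no row in the deposited table, so no level was read for them.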

How the data were processed

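TRIzol-extracted RNA was read on an Illumina HiSeq instrument. The submitters' processing notes name bcl2fastq 2.0, HISAT2, StringTie, DESeq2 and limma and the build hg38, without their roles. The authors deposited whole-number counts per gene, without normalization, and FPKM values, which are scaled to transcript length and library total. Of the 36 members, 36 are in GENCODE 29 and 34 have the same coordinates there. Whether counting used strand is not given in the sources used here. Counts of 4 (8101 gene and library pairs) were more frequent than counts of 3 (2780) or 5 (1758), so counts need not stand for independent fragments.

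Genes whose mean FPKM reached 0.5 were tested with edgeR 4.0.16 (quasi-likelihood, TMM, Benjamini-Hochberg) in R 4.3.3 on the whole table, and genes below it were read from a fit of all genes. Intervals are 95% intervals from the SE and the degrees of freedom of the fit. The script was tested on simulated data. Alternatives were RLE scaling or library totals, DESeq2 1.42.0, limma 3.58.1 on log2(FPKM + 0.1) or log2(FPKM + 1), no filter or a mean FPKM of at least 1, counts divided by 4, a replicate block and leaving out each library. All members are named. Of the pathway lists, genes past an adjusted p of 0.05 are named, with IFNAR1, IFNAR2, JAK1 and TYK2, and others were chosen after their values were seen. Of the genes to be named, 1 is not reported here. The members and lists were chosen with earlier results of these data known.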

Additional observations from a re-analysis of the deposited data

How the results depend on the processing

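The 7 members that rose were 5 to 9 in number over the 15 alternatives, and IFITM1, IFITM2, IFITM3, BST2 and STAT2 kept an adjusted p under 0.05 in all 15. Over the same alternatives 2.44% to 10.8% of all genes in the fit rose. The count of members that fell, 1, was 0 with the replicate block and between 0 and 1 with one library left out. Replicate numbers of the labels showed no sign of pairing in the counts. Correlations of the libraries' deviations from the group means were -0.0321, 0.00442 and 0.0626 for numbers 1, 2 and 3. For unlike numbers they ran from -0.05 to 0.0487. Such correlations cannot show whether the libraries were handled in pairs. With the replicate block 5 members rose, and DDX58, OAS3 and USP18 had adjusted p of 0.068, 0.0813 and 0.0574. Without a filter OAS3 had an adjusted p of 0.112. DESeq2 added IFI6 (adjusted p = 0.0161) and OAS1 (0.0453), and limma added TRIM21 (0.0389 with a pseudocount of 0.1). The cause of these changes was not tested.

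The members past 2-fold were 2 or 3 in every alternative. The median log2 fold change of the tested members, 0.26, was 0.33 with library totals, where all genes moved by 0.065, and 0.19 with limma on log2(FPKM + 1), and lay between 0.21 and 0.28 when single libraries were left out. The 11 further pathway genes called (8 higher, 3 lower) were 16 with DESeq2 (9 higher, 7 lower). They were 12 with library totals and 12 and 13 with limma on log2(FPKM + 0.1) and log2(FPKM + 1). With one library left out they were between 7 and 10. PTPN6 had an adjusted p of 0.0675 with the replicate block and of 0.0669 without a filter.

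Values near 0 changed sign. IFIT5 was 0.043 with library totals, 0.040 and 0.028 with limma on log2(FPKM + 0.1) and log2(FPKM + 1), and between -0.075 and 0.0065 with one library left out (0.0063, 0.0050 and 0.0065 where positive). ISG15 was 0.025 with library totals, 0.028 and 0.026 with limma, and 0.052 and 0.044 without the first sh-NC or the third sh-LINC01977 library (range -0.16 to 0.052). IRF9 was -0.0090 without the first sh-NC library (range to 0.27), MX2 -0.046 without the third (to 0.27) and PARP9 -0.077 without the second sh-LINC01977 library (to 0.16). TYK2 was 0.050 with library totals, 0.045 and 0.039 with limma, and 0.030 and 0.041 without the first sh-NC or the second sh-LINC01977 library (from -0.089), and TBK1 was -0.013 without the first sh-NC library (to 0.086). IRF1 and ISG20 were left out by the filter at a mean FPKM of 1. Counts of the 14 members below the filter were at most 322 in any library, and whether their depth limited the calls was not tested.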
